A study of Mus musculus with 12 samples.

Results

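The Dlk1 to Dio3 region of mouse chromosome 12 was followed through 6 of its genes, which were taken by gene symbol from a count table of 36186 genes. They were the paternally expressed genes Dlk1, Rtl1 and Dio3 and the maternally expressed genes Meg3, Rian and Mirg. They were chosen by their place in the region with earlier results of these libraries known, above all the fold changes of double homozygous Hox mutants against wild type, so the values of that comparison are given as a description with no test. The other comparisons with wild type use the same wild type libraries and are given as descriptions too, which leaves AhCk against AkCh, named in full below, as the comparison whose values for these genes are tested. All 6 genes passed the filter on low counts in every comparison.

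The data were RNA-seq libraries from E18.5 whole kidneys of mice on a mixed background, with 3 libraries in each of 4 groups. Wild type kidneys (WT) were compared with Hoxa9,10,11-/- Hoxc9,10,11+/- kidneys (AkCh), Hoxa9,10,11+/- Hoxc9,10,11-/- kidneys (AhCk) and Hoxa9,10,11-/- Hoxc9,10,11-/- kidneys (AkCk), the last called double homozygous here after their labels. Hox9, Hox10 and Hox11 genes encode the Abd-B type homeodomain transcription factors that pattern the posterior body, and the question put to these libraries is what their shared loss changes in the kidney. The alleles are frameshift mutations in the first exons, and the study's text gives the sequenced double homozygous mutants 1 or 2 wild type copies of Hoxa11, which the labels do not. The same text says that mutants of the labelled genotype lacked detectable kidneys at this stage, so the label and the text differ. Which kidney carried which copy number is not given in the sources used here. Levels are in CPM, which is a count scaled by the size of its library. Hox RNA therefore did not check the genotype labels: Hoxa11 was measured at 44.2 to 59.7 CPM in wild type and 37.1 to 52.9 in AkCk. Whole kidneys hold every renal cell type, so fewer cells of a type and less RNA per cell cannot be told apart in any value below.

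In each library, 28616877 to 47067903 counts fell on genes. Library AkCh 20 had the lowest total and stood apart: its log expression correlated with that of its group mates at a mean r of 0.9258, against 0.9827 to 0.9909 in the other 3 groups. The AhCk against AkCh differences and ratios below are therefore given with and without it, and other AkCh values where leaving it out turned a sign or an overlap. All AhCk libraries came from a sequencing run of their own and all other libraries from another, so for AhCk the genotype and the run cannot be told apart. All 3 wild type libraries had Y-linked transcripts and Xist below 1000 counts, whereas Xist was above 1000 counts in 2 AkCh, 1 AhCk and 2 AkCk libraries. Kidney markers such as Pax2, Wt1 and Lrp2 were present throughout. The 15 nephron and duct markers summed to 2910 to 4080 CPM in wild type and 3490 to 5010 in AkCk. They summed to 2130 to 4100 in AkCh and 2940 to 4130 in AhCk. Among them, Gata3 of the duct and Cited1 of the nephron progenitors fell in AkCk by edgeR. Cited1 went from a mean of 44 to 16.1 CPM. Six2, also of the progenitors, averaged 85.3 and 33.2 and Pax2 136 and 81.7, neither of which passed the test. Library AkCh 20 had less Lrp2 (179 CPM) than its group mates (969 and 958) and less Slc34a1 (83, against 580 and 1070). It had more Six2 (164, against 76.7 and 69.7) and more of the stroma marker Foxd1 (67.6, against 34.8 and 25.5). The part of this in its member levels was not tested.

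In an imprinted region, each gene is read mainly from the chromosome of 1 parent. Between Dlk1 and Dio3, methylation of an intergenic control region on the paternal chromosome accompanies expression of the protein-coding genes Dlk1, Rtl1 and Dio3, and the unmethylated maternal chromosome expresses a string of noncoding RNAs, among them Meg3, Rian and Mirg, that carry snoRNAs and microRNAs. The region is known for its part in fetal growth and in the placenta, skeletal muscle and fat. The libraries used here do not separate the parental chromosomes, so a level is the sum over both.

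By the GENCODE annotation of the mm10 build, Dlk1 lies at chr12:109452823-109463336 on the plus strand, and its exons, joined over all its transcripts, cover 5.66 kb. Meg3 follows at chr12:109541001-109571726 on the plus strand, Rtl1 at chr12:109589193-109600330 on the minus strand, Rian at chr12:109603940-109661716 and Mirg at chr12:109729764-109749460, both on the plus strand. Dio3, a gene with 1 exon, closes the region at chr12:110279068-110281097. In these GENCODE models, no exon of a member shared a base with an exon of another member. The RefSeq span of Rtl1 is longer, at chr12:109564900-109604418. It reaches over the end of Meg3 in RefSeq (109571729) and the start of Rian (109603945). Whether reads there were shared between these genes in the counts was not tested. Rtl1 has transcripts on the strand opposite to it, and whether the counting used strand is not given in the sources used here, so reads of Rtl1 and of its antisense partners cannot be told apart.

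The promoters of Dlk1 and Meg3, the first genes of the paternally and the maternally expressed set along the chromosome, are shown because the altered proteins bind DNA. The letters searched, on both strands, were TTTAT and TTTAC, which resemble the core of Abd-B type sites, TAAT, the core of many homeodomain sites, and TATAAA, the TATA box; each window runs from 250 bases before the start site to 50 after it, from RefSeq on GRCm38.p6. Capitals mark the matches, which overlap one another in Meg3.
Dlk1 (chr12:109452573-109452872, plus strand): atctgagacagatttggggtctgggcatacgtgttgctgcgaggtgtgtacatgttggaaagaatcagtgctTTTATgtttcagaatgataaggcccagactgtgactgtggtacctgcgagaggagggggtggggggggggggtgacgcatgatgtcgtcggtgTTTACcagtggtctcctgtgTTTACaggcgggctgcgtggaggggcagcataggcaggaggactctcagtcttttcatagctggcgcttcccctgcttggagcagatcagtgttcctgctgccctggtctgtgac
Meg3 (chr12:109540746-109541045, plus strand): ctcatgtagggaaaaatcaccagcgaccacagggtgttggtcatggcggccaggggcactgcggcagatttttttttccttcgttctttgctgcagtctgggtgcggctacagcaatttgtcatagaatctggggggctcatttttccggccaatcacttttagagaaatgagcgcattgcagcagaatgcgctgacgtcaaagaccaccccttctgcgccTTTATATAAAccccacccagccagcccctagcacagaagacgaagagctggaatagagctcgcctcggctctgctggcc
Dlk1 held TTTAT at 178 bases before its start site and TTTAC at 85 and 65 bases before it, and no TATAAA. Meg3 held 1 match of TTTAT on each strand, and both lie in the stretch that also holds TATAAA, at 25 bases before the start site. Of 32851 promoter windows of the same length, 40% held TTTAT, 31.5% held TTTAC, 58% held TAAT and 13.6% held TATAAA on either strand. Neither the Dlk1 nor the Meg3 window held TAAT, which says only that these letters are not in them. The matches describe the letters in these windows and no binding was measured.

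The exons of Rtl1 also lie opposite 6 microRNA hairpins of the maternal chromosome, and microRNAs made there are known to cut the Rtl1 transcript because they pair with it fully. They are shown because they join the paternally and the maternally expressed side of the region in a single stretch of sequence, with 1 mature strand for each hairpin from RefSeq and the seed, bases 2 to 8, in capitals.
mmu-miR-431-5p: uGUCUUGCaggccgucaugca
mmu-miR-433-5p: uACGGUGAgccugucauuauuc
mmu-miR-127-5p: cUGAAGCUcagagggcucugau
mmu-miR-434-5p: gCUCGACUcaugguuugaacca
mmu-miR-432: uCUUGGAGuagaucagugggcag
mmu-miR-136-5p: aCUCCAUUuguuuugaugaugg
The 6 hairpins give 11 mature sequences in the table, and their 11 seeds are all different. Of the 66 small RNA genes of the region in the count table, 59 microRNAs and 7 snoRNAs, 51 had no count in any library and none exceeded 2 counts in any library. The small RNAs of the region were thus not measurable in these libraries.

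Per kilobase of exon, Dlk1 was the most abundant member in wild type kidneys, with 7.27 ± 0.43 CPM per kb (SD, n = 3). Rian followed at 1.59 ± 0.0835 and Meg3 at 0.484 ± 0.0829 on the same scale. Dio3 was at 0.143 ± 0.0631, Mirg at 0.106 ± 0.011 and Rtl1 at 0.0509 ± 0.0201, and the neighbours Dio3 and Mirg in this order did not differ beyond their spread. In double homozygous kidneys Dlk1 was at 69.5 ± 14.3 and Rian at 2.44 ± 0.431, while Rtl1, at 0.489 ± 0.173, stood above Meg3, at 0.285 ± 0.0523. Rtl1 exceeded Meg3 on this scale in each of the 3 AkCk libraries and was below it in each wild type library. Levels below are in CPM without division by length, and are compared only within a gene.

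Dlk1 encodes a membrane protein with EGF-like repeats, related to the Notch ligands, that holds preadipocytes and other progenitors undifferentiated. It was measured at 39.1, 43.8 and 40.4 CPM in the wild type kidneys. The AkCk kidneys had 431, 448 and 300.0 CPM. No mutant group overlapped wild type, since the AkCh kidneys had 218, 74.8 and 54.1 and the AhCk kidneys 81.8, 99.8 and 149 CPM. The groups stood in the order wild type, then AkCh and AhCk, which overlapped each other, then AkCk, and the lowest AkCk library exceeded the highest of any other group. Against wild type, the fitted difference in AkCk was 9.54-fold (log2 fold change 3.25, SE 0.16), the 24th largest rise of 15839 genes tested, given as a description. In AkCh it was 2.81-fold (log2 1.49, SE 0.52) and in AhCk 2.7-fold (log2 1.43, SE 0.21). Without AkCh 20, the library with the highest Dlk1 of its group, the AkCh difference was 0.64 on the log2 scale, and the 2 remaining libraries were still above all wild type libraries.

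Between the single homozygous groups, which share no library with the comparison that led to the choice of genes, Dlk1 differed by -0.07 on the log2 scale (AhCk against AkCh, SE 0.54, adjusted p = 0.97, edgeR). The sign changed without AkCh 20, where the difference was 0.78 (adjusted p = 0.212). AkCk exceeded AkCh by 1.78 on the log2 scale (SE 0.53), or by 2.63 without AkCh 20, again as a description because the AkCk libraries are shared.

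Rtl1, a gene derived from a retrotransposon that the placenta needs, was low throughout. The wild type kidneys had 7, 19 and 13.5 counts, which is 0.186, 0.438 and 0.347 CPM. The AkCk kidneys had 160.0, 124 and 71.9 counts, or 4.18, 3.16 and 1.98 CPM, all above every other library of the series. In AkCh the levels were 1.62, 0.314 and 0.132, so that group covered the wild type range and only AkCh 20 lay above it. The AhCk kidneys, at 0.617, 0.941 and 0.996 CPM, were above wild type without overlap. The AkCk difference from wild type was 9.43-fold (log2 3.24, SE 0.41), close to that of Dlk1 in size. The log2 difference from wild type was 1.01 (SE 0.92) in AkCh and 1.40 (SE 0.38) in AhCk. Without AkCh 20 the AkCh value was -0.53.

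The noncoding RNA 6430411K18Rik lies within the Rtl1 span and held few counts. It had 2 to 3.5 counts in the wild type libraries, 2 to 5 in AkCh, 2 to 13 in AhCk and 8.5 to 23.5 in AkCk. The library with the most Rtl1 counts, AkCk 24, was also the library with the most counts of this RNA. It was named after its values were seen, and given the missing strand information the 2 genes are uncertain where their reads meet.

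Dio3 encodes the type 3 deiodinase, which inactivates thyroid hormone, and was near the detection limit. Its counts were 6, 18 and 12 in wild type, 2, 14 and 8 in AkCh, 4, 14.3 and 22 in AhCk and 12.9, 14 and 22 in AkCk. All mutant groups overlapped wild type in CPM. The fitted log2 difference from wild type was 0.55 (SE 0.46) in AkCk, -0.42 (SE 0.59) in AkCh and 0.02 (SE 0.56) in AhCk. With SEs of this size a difference such as that of Dlk1 in AkCk would stand out, but a change of the size seen for Rian was not detectable at this depth. Dio3 was thus the paternally expressed member whose AkCk level was not set apart from wild type.

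**Figure D1:**
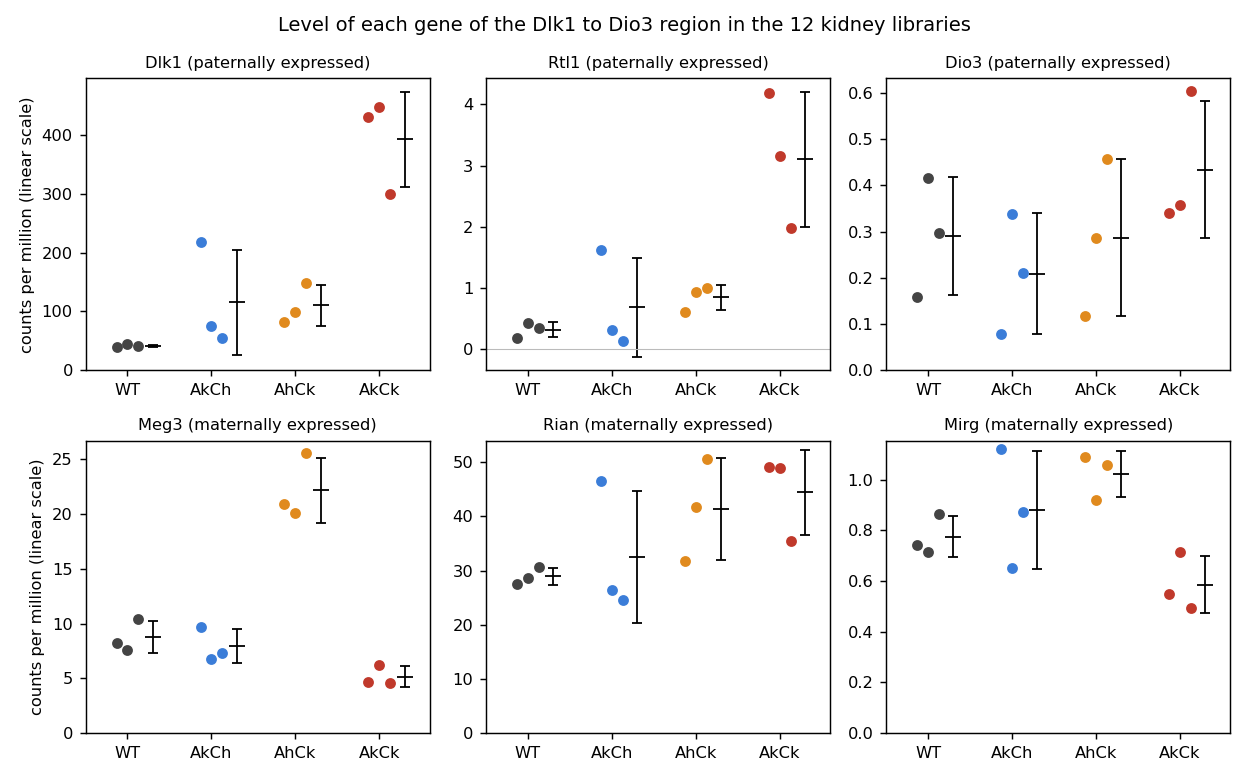
Level of each gene in CPM on a linear scale, with 1 point per library (n = 3 per group) and, beside the points, a line at the mean with bars of 1 SD. Dlk1 and Rtl1 are highest in the 3 AkCk libraries, whereas Meg3 is highest in the 3 AhCk libraries, at 20.1 to 25.6 CPM.

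Meg3, the long noncoding RNA nearest to Dlk1, ran differently. The wild type kidneys had 8.22, 7.59 and 10.4 CPM, and the AkCh kidneys, at 9.7, 6.78 and 7.34, overlapped them. The AkCk kidneys had 4.65, 6.24 and 4.56, below every other library of the series. The AhCk kidneys had 20.9, 20.1 and 25.6, above every other library. The fitted difference of AkCk from wild type was 0.589-fold (log2 -0.76, SE 0.19), which is a description. On the same footing, the log2 difference from wild type was -0.14 (SE 0.21) in AkCh and 1.35 (SE 0.16), or 2.55-fold, in AhCk. Meg3 has 18.1 kb of exon. For each library, the deviation of log expression from each gene's median over the 12 libraries was correlated with exon length across 13496 genes. The Spearman correlation was 0.089 to 0.281 in AhCk and -0.197 to -0.098 in AkCk. In wild type it was -0.254 to 0.181 and in AkCh -0.385 to 0.32. Rian, with 18.2 kb of exon, is described below, and the part of gene length in the Meg3 levels was not tested.

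Against AkCh, which shares no library with the comparison behind the choice of genes, Meg3 in AhCk was higher by 1.48 on the log2 scale (2.8-fold, SE 0.20) in 3 of 3 libraries and narrowly missed the threshold (adjusted p = 0.0691, edgeR). Only 0.177% of all genes tested were called in that comparison. The adjusted p over the alternatives that kept all libraries ran from 2.27e-09 to 0.0691, with 4 of 7 past the threshold, and without AkCh 20 the difference was 1.66 (adjusted p = 0.00972). Without any 1 of the other 5 libraries the adjusted p was 0.309 to 0.376. The AhCk libraries had a run of their own, so the share of the genotype and of the run in the Meg3 level cannot be told apart.

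Other RNAs that stay in the nucleus were looked at after the Meg3 values were seen, and are given without a test. In AkCk, the log2 difference from wild type was -1.58 for Malat1, -2.35 for Neat1, -0.86 for Kcnq1ot1 and -3.36 for Miat. Malat1 was at 28.6 to 44.2 CPM in AkCk and at 99.3 to 119 in wild type, and the summed level of the 5 RNAs of this list was 36.1 to 54.2 against 125 to 162. In AhCk the summed level reached 182 and overlapped wild type. There the log2 difference was -0.01 for Malat1, 0.21 for Neat1, 0.32 for Kcnq1ot1, 0.26 for Miat and 0.91 for Snhg11, so 4 of 5 were above 0, and none was as large as that of Meg3. The part of this in the Meg3 result was not tested.

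Rian, the transcript that hosts the C/D box snoRNAs of the region, was the most abundant maternally expressed member. It was measured at 27.6, 28.6 and 30.6 CPM in wild type and at 49.1, 48.9 and 35.4 in AkCk, with no overlap. The AkCh kidneys, at 46.6, 26.5 and 24.6, lay on both sides of the wild type range, with AkCh 20 alone above it. The AhCk kidneys had 31.7, 41.7 and 50.6 CPM and were all above wild type. The log2 difference from wild type was 0.62 (SE 0.13) in AkCk as a description, 0.17 (SE 0.26) in AkCh and 0.53 (SE 0.16) in AhCk. Without AkCh 20 the AkCh value was -0.18.

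Mirg, the host of a microRNA cluster, was low, with 18.4 to 50.8 counts per library. The wild type kidneys had 0.743, 0.715 and 0.866 CPM and the AkCk kidneys 0.549, 0.713 and 0.495. The AkCk libraries lay just below wild type, by a margin of 0.713 to 0.715 between the nearest pair. The AhCk kidneys, at 1.09, 0.921 and 1.06, lay above wild type, and the AkCh kidneys, at 1.12, 0.651 and 0.871, overlapped it. No difference from wild type was large against its error, with log2 values of -0.40 (SE 0.29) in AkCk, 0.17 (SE 0.29) in AkCh and 0.41 (SE 0.23) in AhCk. The AkCh value was -0.03 without AkCh 20.

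Counted over the members, 5 of 6 did not overlap between AkCk and wild type, with Dlk1, Rtl1 and Rian above and Meg3 and Mirg below. Among all genes tested, 38.1% did not overlap in that comparison and 13.7% were called at an adjusted p below 0.05, against 4 of 6 members, and since these libraries led to the choice nothing is read from the count. In AhCk against wild type, 5 of 6 members (Dlk1, Rtl1, Meg3, Rian and Mirg) lay above wild type, where 26.7% of all genes did not overlap. Dlk1 and Meg3 were the 2 of 6 members called, where 2.36% of all genes were called, and as the wild type libraries are those behind the choice nothing is read from these counts either. In AkCh against wild type, Dlk1 alone did not overlap, against 8.35% of all genes, and no member was called by edgeR or DESeq2, with Dlk1 at an unadjusted p of 0.0261 by edgeR and the other members above 0.05. No gene at all was called in that comparison by edgeR, with 360 of 15789 at an unadjusted p below 0.05 (2.28%) and 18 called by DESeq2. Without AkCh 20, Meg3 and Rian also lay apart from wild type, below it, and 33% of all genes then did not overlap.

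**Figure D2:**
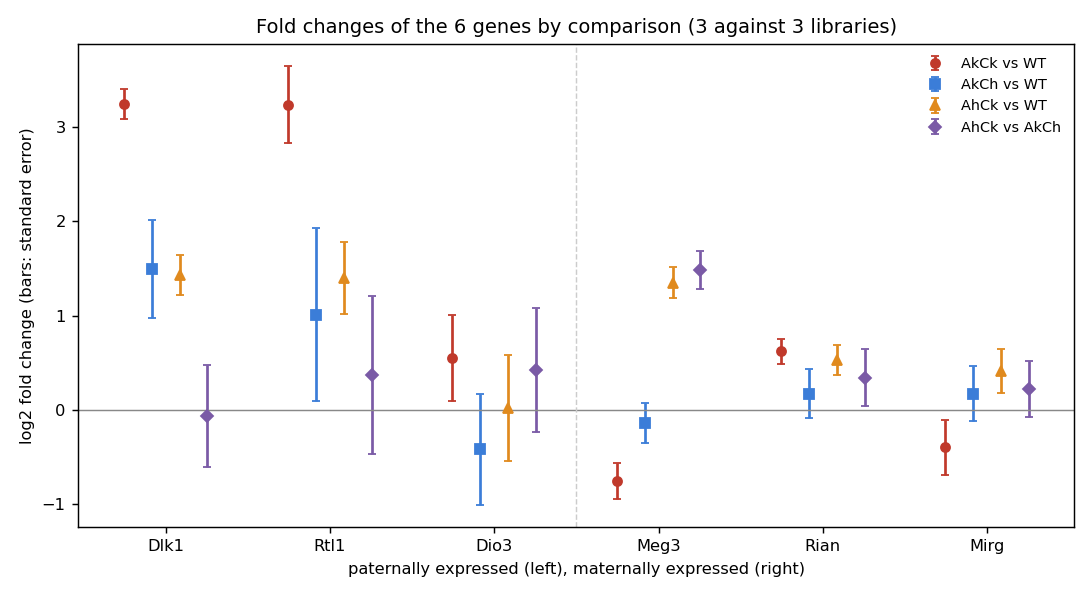
Log2 fold change of each gene, with bars of 1 standard error, for 4 comparisons of 3 against 3 libraries. Dlk1 and Rtl1 stand at 3.25 and 3.24 in AkCk against wild type, and Meg3 and Mirg have opposite signs in AkCk (-0.76 and -0.40) and AhCk (1.35 and 0.41).

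The AhCk and AkCh groups carry mirror genotypes. Beside Dlk1 and Meg3, the log2 difference of AhCk from AkCh was 0.37 for Rtl1 (SE 0.84, adjusted p = 0.891, edgeR), 0.42 for Dio3 (SE 0.66, adjusted p = 0.83), 0.34 for Rian (SE 0.30, adjusted p = 0.683) and 0.22 for Mirg (SE 0.30, adjusted p = 0.797), and none of these passed the test. Without AkCh 20 these values were 1.92 for Rtl1 (adjusted p = 0.131), 0.10 for Dio3 (0.947), 0.70 for Rian (0.144) and 0.43 for Mirg (0.464). Of the 6 members Meg3 was the only 1 whose libraries did not overlap between them, where 22% of all genes did not overlap. Without AkCh 20 that count was 5 of 6, with Dlk1, Rtl1, Meg3, Rian and Mirg all higher in AhCk, where 38.3% of all genes did not overlap. Against AkCh, the AkCk libraries did not overlap for Dlk1, Rtl1 and Dio3, which were above, and for Meg3, which was below, where 23% of all genes did not overlap. Without AkCh 20, Rian joined those above, where 44.6% of all genes did not overlap. In that comparison edgeR called no gene, with 1787 of 15764 at an unadjusted p below 0.05 (11.3%), while DESeq2 called 487.

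The ratio of 2 genes within a library does not depend on its depth. The log2 ratio of Meg3 to Dlk1 counts was -2.25, -2.53 and -1.95 in wild type and -6.53, -6.16 and -6.03 in AkCk. In AkCh it was -4.49, -3.46 and -2.88, and in AhCk it was -1.97, -2.31 and -2.54. The AhCk kidneys thus overlapped the wild type range, with both genes higher, while the AkCh kidneys lay between wild type and AkCk and overlapped neither. The difference of AhCk from wild type was -0.03 on the log2 scale. AhCk exceeded AkCh by 1.34 with no overlap (two-sided exact permutation test, p = 0.1, n = 3 per group), which is the smallest p that 3 against 3 libraries allow. Without AkCh 20 the AkCh mean went from -3.61 to -3.17 and the difference to 0.90, still with no overlap (exact permutation p = 0.2, the smallest that 3 against 2 libraries allow).

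The log2 ratio of Rian to Meg3 averaged 1.74 ± 0.18 in wild type, 1.99 ± 0.26 in AkCh, 0.88 ± 0.24 in AhCk and 3.11 ± 0.25 in AkCk (SD, n = 3). In linear terms there were 2.92 to 3.77 Rian counts for each Meg3 count in wild type, 7.74 to 10.5 in AkCk and 1.52 to 2.07 in AhCk. The AhCk libraries lay below and the AkCk libraries above all others. Between AhCk and AkCh the log2 ratio differed by -1.11 (exact permutation p = 0.1, n = 3 per group), or by -0.98 without AkCh 20. The ratio of Rian to Dlk1 differed by 0.22 between these groups (exact permutation p = 0.7, n = 3 per group), or by -0.08 without AkCh 20.

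The log2 ratio of Rtl1 to Dlk1 averaged -7.01 ± 0.54 in wild type, -7.81 ± 0.74 in AkCh, -6.98 ± 0.25 in AhCk and -7.02 ± 0.29 in AkCk. The difference from wild type was -0.80 in AkCh, 0.03 in AhCk and -0.01 in AkCk. With AkCh 20, the AkCh group overlapped wild type and AkCk. Without AkCh 20 its difference from wild type was -1.18, and the remaining AkCh libraries lay below all wild type and AkCk libraries. AhCk exceeded AkCh by 0.83, with overlap (exact permutation p = 0.2, n = 3 per group). The overlap came from AkCh 20, at -7.06, and without it the other AkCh libraries, at -7.84 and -8.54, lay below all AhCk libraries, with a difference of 1.21 (exact permutation p = 0.2). Averaged over the 3 maternally and the 3 paternally expressed members, the log2 ratio of maternal to paternal counts was 1.91 ± 0.47 in wild type, 1.58 ± 0.51 in AkCh, 1.76 ± 0.43 in AhCk and -0.63 ± 0.19 in AkCk. AhCk and AkCh overlapped on this measure and differed by 0.18 (exact permutation p = 0.5, n = 3 per group), or by 0.04 without AkCh 20, in which the opposing signs of single members are not visible.

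**Figure D3:**
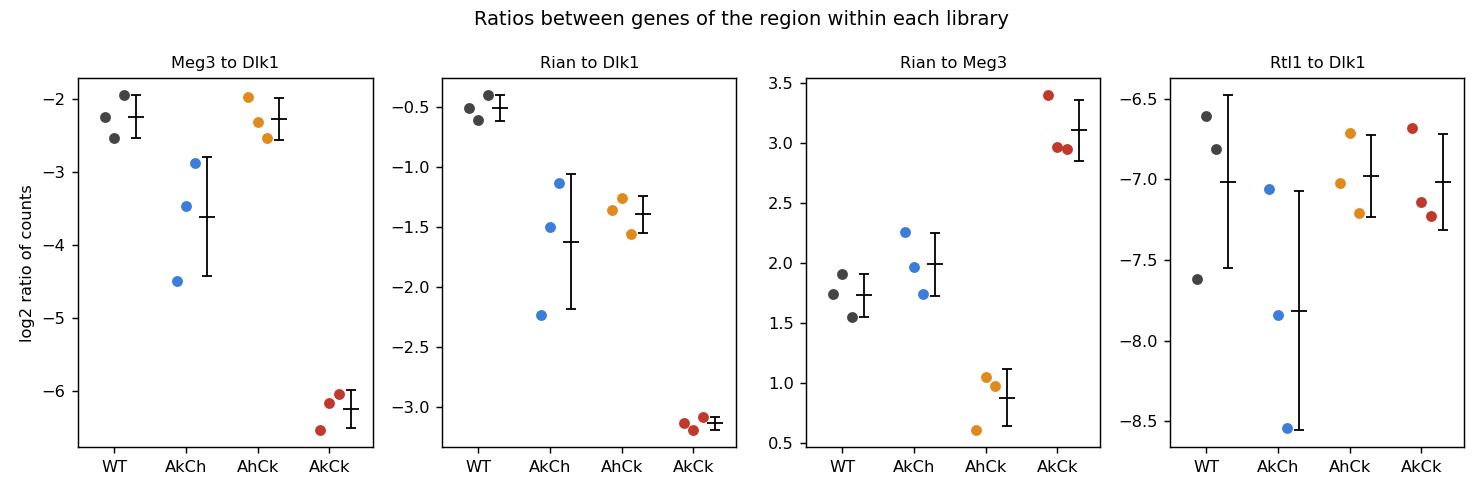
Log2 ratio of counts between 2 genes within each library, with 1 point per library and, beside the points, a line at the mean with bars of 1 SD (n = 3). Each panel has its own axis, which does not start at 0: Rian to Meg3 spans 0.61 to 3.40 with AhCk lowest and AkCk highest, while the groups overlap for Rtl1 to Dlk1.

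Genes beside the region were compared from a list of 20 flanking genes, of which 18 were in the table and all 18 were tested. None of the 18 was called by edgeR in any of the 5 comparisons. Of all genes, 13.7% were called in AkCk and 2.36% in AhCk against wild type, 0.177% in AhCk against AkCh and none in the others. Without overlap, 1 flanking gene lay above and 4 below wild type in AkCk (38.1% of all genes in either direction). In AhCk 2 lay above and 4 below wild type (26.7%), and 3 above and 4 below AkCh (22%). At an unadjusted p below 0.05 there were 3 in AkCk, 0 in AkCh and 5 in AhCk, each against wild type, beside 32.4%, 2.28% and 21.1% of all genes. In AkCk against wild type their log2 differences ran from -0.34 for Begain to 0.41 for Slc25a47, with a median of -0.01, and the median over all genes was -0.008. In AhCk against wild type they ran from -0.40 for Yy1 to 0.65 for Slc25a47 with a median of 0.07, so that the differences of Rian and Mirg lay within the range of the flanking genes, and the lowest adjusted p belonged to Yy1 (log2 -0.40, adjusted p = 0.0529, edgeR), a zinc finger factor upstream of Dlk1. The closest tested genes, Begain on the Dlk1 side and Ppp2r5c on the Dio3 side, differed by -0.34 (SE 0.15) and -0.01 (SE 0.07) in AkCk. No flanking gene differed by as much as Dlk1 or Rtl1 in AkCk.

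**Figure D4:**
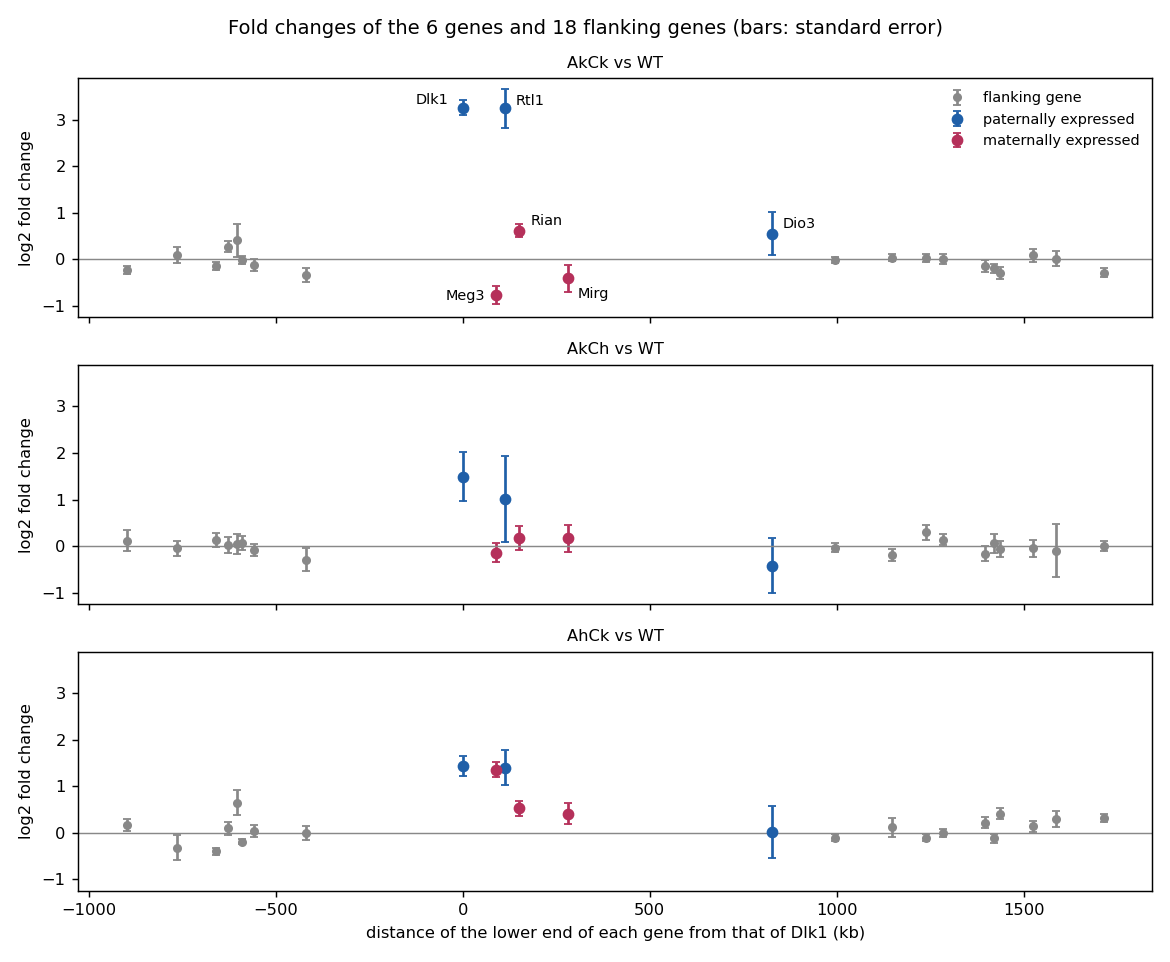
Log2 fold change against wild type, with bars of 1 standard error, plotted against the distance in kb of the lower end of each gene from that of Dlk1, for AkCk, AkCh and AhCk. The 18 flanking genes lie between -0.34 and 0.41 in AkCk, where Dlk1 and Rtl1 stand at 3.25 and 3.24, between -0.29 and 0.30 in AkCh, and between -0.40 and 0.65 in AhCk, a range that holds the values of Rian (0.53) and Mirg (0.41) there.

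Over the 12 libraries, the genes whose log expression was most like that of Dlk1, of 14223 genes with a mean of at least 1 CPM and the members, were Fbln5 (Pearson r = 0.98), Postn (0.978), Clec11a (0.969), Matn2 (0.965) and Mfap5 (0.963). Fbln5, Postn, Matn2 and Mfap5 encode proteins of the extracellular matrix, and Clec11a a secreted growth factor. Postn averaged 116 CPM in wild type, 202 in AkCh, 187 in AhCk and 459 in AkCk. Rtl1 stood 8th in the same order (r = 0.96) and Rian 273rd (0.812), whereas Meg3 stood 10206th (-0.291). These correlations are descriptions over 12 libraries that share 4 group means, 1 low-depth library and the run difference. Within genotypes, after each group mean was removed, Dlk1 and Rian deviated together (r = 0.95) and so did Dlk1 and Rtl1 (r = 0.94), with AkCh 20 the highest of its group for all 3. For Meg3 and Dlk1 this value was 0.66. With Dlk1 it was 0.97 for Fbln5, 0.88 for Clec11a, 0.87 for Postn, 0.84 for Mfap5 and 0.76 for Matn2. Deviating together with Dlk1 within genotypes was thus not particular to the members.

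The genes most like Meg3 were A130077B15Rik (r = 0.987), Zfp488 (0.985), Gm17821 (0.98), Zfp865 (0.96) and Dclre1c (0.951). All 5 were highest in AhCk and lowest in AkCk, as Meg3 was: A130077B15Rik averaged 3.64 CPM in wild type, 9.37 in AhCk and 2.55 in AkCk. Mirg stood 192nd in this order (r = 0.83). With AhCk in a run of its own, genotype and run cannot be told apart for these genes either.

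**Figure D5:**
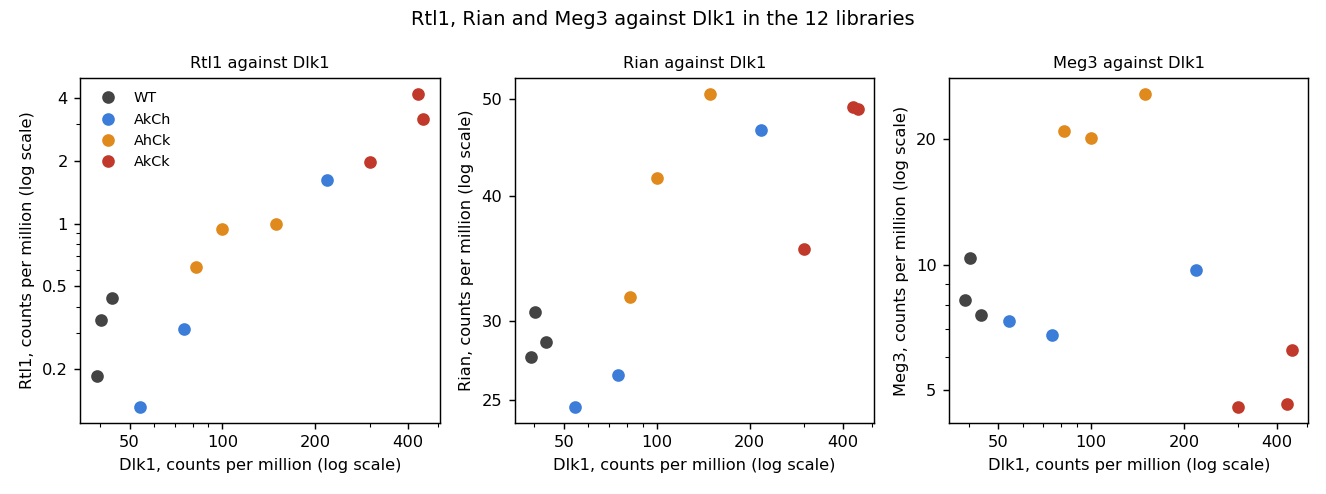
Rtl1, Rian and Meg3 against Dlk1, in CPM on log axes, with 1 point for each of the 12 libraries. Dlk1 and Rtl1 are both highest in AkCk (r = 0.96 over libraries that share 4 group means), while AkCh 33 has more Dlk1 (54.1) and less Rtl1 (0.132) than any wild type library, and for Meg3 the AhCk libraries lie above and the AkCk libraries below the others.

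Markers of stroma and of tissues beside the kidney were read next to Dlk1, which is also made by fetal liver, muscle and adrenal. Of 6 stroma markers, 3 rose in AkCk against wild type: Col1a1, the main fibrillar collagen, by 1.88 on the log2 scale (SE 0.08, adjusted p = 0.000199, edgeR), Pdgfra by 0.81 and Foxd1 by 0.66. Their summed level was 1480.0 to 1620.0 CPM in wild type, 1550.0 to 2410.0 in AkCh, 1790.0 to 2780.0 in AhCk and 3720.0 to 4170.0 in AkCk. Col1a1 made up most of that sum, with a mean of 829 CPM in wild type and 3050.0 in AkCk, whereas Tcf21 averaged 219 and 211 and Meis1 78.2 and 70.8. The part of stroma in the Dlk1 result was not tested. Of 9 liver markers tested, 3 rose in AkCk, among them Alb, at 0.874 ± 0.209 CPM in wild type and 9.2 ± 6.47 in AkCk. The summed level of the 10 liver markers was 54 to 92.7 in wild type, 99.8 to 152 in AkCh, 72.8 to 140.0 in AhCk and 77.6 to 156 in AkCk, so AkCk overlapped every other group there. Afp, the fetal albumin of liver and yolk sac, made up most of that sum, with a mean of 68.1 CPM in wild type and 101 in AkCk. Of 9 skeletal muscle markers tested, 2 rose (Myh3 and Myog), with a summed level of 7.67 to 14.7 in wild type and 13.8 to 27.5 in AkCk. The summed level of the 8 adrenal cortex markers was 38 to 47.3 in wild type and 27.7 to 38.7 in AkCk, and of 5 tested none rose and Akr1b7 fell. Akr1b7 made up most of that sum, with a mean of 36.8 CPM in wild type and 23.9 in AkCk. Cyp11a1, the enzyme that starts steroid synthesis, was at 0.347 to 0.554 CPM in wild type and 0.784 to 1.87 in AkCk, and Mc2r, the receptor for ACTH, at 0.767 to 1.18 and 1.7 to 2.7, both above wild type without overlap and without passing the test. The steroid enzyme genes Cyp11b1, Cyp21a1 and Hsd3b1 were highest in AkCk 29, at 0.742, 0.879 and 1.1 CPM, against at most 0.0923, 0.231 and 0.0495 in wild type. Of 3 adrenal medulla markers tested, Chgb rose, and the summed level of the list was 1.88 to 2.51 in wild type and 1.91 to 8.41 in AkCk. Pnmt, the enzyme that makes adrenaline, was at 1.19 to 1.8 CPM in wild type and 0 to 0.989 in AkCk, below it without passing the test. Gonad markers summed to 7.45 to 8.17 in wild type and 9.59 to 10.1 in AkCk, with 1 of 4 tested higher, and adipose markers to 256 to 303 and 251 to 275. That sum was nearly all Fabp4, which is also made outside fat, while Adipoq, Plin1 and Cidec reached at most 0.385 CPM in these groups and Lep was at 0. The 6 markers of the mesonephros and its ducts summed to 167 to 189 in wild type and 119 to 140.0 in AkCk, and of 5 tested Lhx1 and Emx2 fell and none rose. Emx2 and Lhx1 made up most of that sum, with means of 102 and 47.3 CPM in wild type and 69.3 and 32.3 in AkCk. Crisp1 of that list averaged 3.45 and 8.98 CPM and did not pass the test. The part of the mesonephros in the Dlk1 result was not tested. Erythroid markers summed to 538 to 1360.0 in wild type, 522 to 5840.0 in AhCk and 1150.0 to 1530.0 in AkCk, and none of the 5 tested was called in AkCk or AhCk. Of the liver, muscle and adrenal medulla markers, Cps1 and Pnmt were at 0 in 1 AkCk library each and the others above 0 in all 3, and the part of liver, muscle and adrenal in the Dlk1 result was not tested.

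The sex of the libraries was also read beside the members. With the Xist level as a covariate in a fit of all 12 libraries, the log2 difference of AkCk from wild type was 3.69 for Dlk1 and 3.75 for Rtl1, -0.66 for Meg3 and 0.81 for Rian. In AhCk that fit gave 1.73 for Dlk1. Meg3 and Rian in AkCk and Dlk1 in AhCk, which the main fits called, were not called in it. Of these, Rian and Dlk1 were not called in the 12-library fit without Xist either.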

How the data were processed

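RNA from E18.5 whole kidneys was made into Illumina libraries and sequenced in paired-end mode. The authors aligned reads to mm10, removed reads that mapped to several positions and counted them in Strand NGS. The deposited table holds expected counts per gene, which are partly fractional. A second deposited table holds log2 values that the authors normalized and centred on the median of each gene, and it was used only in an alternative. Whether counting used strand is not given in the sources used here.

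Expected counts were rounded and tested in edgeR 4.0.16 (R 4.3.3) with TMM scaling, filterByExpr (minimum count 10, total 15), quasi-likelihood tests and Benjamini-Hochberg adjustment over all genes, at 0.05. Each fit held the 6 libraries compared. The study's own test has no term for the spread between replicates and was not used. Levels in CPM, counts scaled by library size, used TMM scaling over all 12 libraries. Ratios were formed on counts plus 0.5, and ratios between groups were tested by exact permutation (scipy 1.17.1). Likeness was the Pearson correlation of log expression over 12 libraries. Alternatives were DESeq2 1.42.0, limma 3.58.1 on the deposited log2 values, other scalings, no filter, joint fits, an Xist covariate and leaving out each library. The procedure was tested on simulated data. The members and the gene lists were chosen with earlier results of these data known, and named genes were the members, the 5 genes most like Dlk1 or Meg3 and listed genes. The nuclear RNAs were added after values were seen. Whether libraries of a group came from separate litters is not given, so p-values measure the spread between these kidneys. The wild type libraries enter several comparisons. The thyroid hormone list is not reported here.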

Additional observations from a re-analysis of the deposited data

How the results depend on the processing

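No paired analysis was possible because the kidney numbers of the groups differ. The log2 ratios of Meg3 to Dlk1 and of maternal to paternal members moved by less than 1 SD under the other prior count and unrounded counts. For the members of AkCk against wild type, each alternative kept the sign; Dlk1 and Rtl1 stayed between 2.97 and 3.75. Counts depended more on the fit, and the cause was not tested. In AkCk against wild type, 2171 genes and 4 members became 3280 genes by DESeq2, 1190 and 3 members with all 12 libraries in 1 fit, 690 and 1 member with the 9 libraries of the shared run, 984 and 2 members with Xist as covariate, 1215 and 2 members by limma, and 535 to 3386 genes and 2 to 4 members without each library. In AkCh against wild type, 0 genes became 18 by DESeq2, 2 in the 12-library fit, 1 by limma and 0 to 8 without each library, 8 being the count without AkCh 20. In AhCk against wild type, 376 genes and 2 members became 1265 genes and 3 members by DESeq2, 149 and 1 member in the 12-library fit, 124 and 1 member with Xist, 158 and 1 member by limma, and 60 to 549 genes and 0 to 3 members without each library, with 60 genes and 0 members without WT 37. In AkCk against AkCh, 0 genes and 0 members became 487 and 1 by DESeq2, 1 gene without the filter, 540 genes in the 12-library fit, 181 with the 9 libraries, 646 and 1 member with Xist, 1 gene by limma, and 0 to 687 genes and 0 to 3 members without each library, the highest being without AkCh 20. In AhCk against AkCh, 28 genes and 0 members became 1 member (Meg3) by library size alone, 316 genes and 1 member by DESeq2, 310 and 1 in the 12-library fit, 922 and 1 with Xist, 47 genes by limma, and 8 to 118 genes and 0 to 1 member without each library, the highest again without AkCh 20. The members without overlap went from 1 to 3 in AkCh against wild type, from 4 to 5 in AkCk against AkCh and from 1 to 5 in AhCk against AkCh without AkCh 20, an alternative chosen after seeing the data. Signs of members that did not pass the test turned in places. Without each library, the AkCh values against wild type ran from -0.32 to 0 for Meg3, -0.18 to 0.34 for Rian, -0.03 to 0.35 for Mirg and -0.53 to 1.52 for Rtl1, and the AhCk value of Dio3 from -0.46 to 0.37. That Dio3 value was -0.18 with Xist and -0.09 by limma. For AhCk against AkCh the ranges were -0.42 to 0.78 for Dlk1, -0.15 to 1.92 for Rtl1 and -0.05 to 0.94 for Dio3, and Dlk1 was 0.07 by library size alone and 0.17 by limma. The ratio of Rian to Dlk1 in AhCk minus AkCh turned from 0.22 to -0.08 without AkCh 20, also chosen after seeing the data, and the other ratio differences kept their sign. By Spearman correlation, 1 of the 5 genes most like Dlk1 and 1 of the 5 most like Meg3 remained in those lists. Rtl1, Dio3 and Mirg had at most 160 counts in a library, which limits their precision.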

Other observations

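Imprinted genes outside the region were counted from lists. The genes of these and of the further lists below were chosen with earlier results of these data known. Their counts and adjusted p-values are therefore descriptions, and nothing is read from the counts beside the shares of all genes. Of 22 paternally expressed genes tested in AkCk against wild type, 4 rose and 2 fell by edgeR, beside 6.31% of all genes higher and 7.4% lower. The fetal growth factor Igf2 rose by 0.53 on the log2 scale (SE 0.08, adjusted p = 0.00711), Peg3 by 0.54 and Plagl1, a zinc finger regulator of growth genes, by 0.63. The antisense RNA Kcnq1ot1 fell by 0.86 and Peg10 fell by 0.33. The list's median was 0.07, beside -0.008 over all genes. Of 20 maternally expressed genes tested, 7 rose and none fell, with a median of 0.33. The small proteoglycan gene Dcn rose by 2.08 (SE 0.16, adjusted p = 0.000919), Zim1 by 1.29 and the cell cycle inhibitor Cdkn1c by 0.60. Dcn is known as imprinted in the placenta. In AhCk against wild type, Peg3 (log2 0.66, adjusted p = 0.0421) and Zim1 (1.18, adjusted p = 0.0339), which are neighbours, were the genes called from these lists, beside 0.836% of all genes higher. In AkCh none was called.

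Of 10 genes for the upkeep of imprints tested in AkCk against wild type, 4 fell and 1 rose, beside 7.4% of all genes lower and 6.31% higher. The zinc finger gene Zfp57, whose protein protects methylation at imprinted control regions, fell by 1.04 on the log2 scale, from 20.5 ± 3.55 to 9.99 ± 0.992 CPM (SD, n = 3, adjusted p = 0.00741, edgeR). The maintenance methyltransferase gene Dnmt1 fell by 0.54, Zfp445 by 0.42 and Ctcf by 0.30, and Aff3 rose by 0.42. In AkCh and AhCk none was called, and Zfp57 differed by -0.21 (SE 0.33) and -0.05 (SE 0.16). Whether these levels bear on the region was not tested.

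Of 16 partners of Dlk1 and factors of fat cell formation, 3 fell and 1 rose in AkCk, beside the same shares of all genes: Notch1 fell by 0.23, its target Hes1 by 0.47 and Fgfr1 by 0.46, and Klf4 rose by 0.64. None of the 16 was called in AkCh or AhCk.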
